A study of Mus musculus with 12 samples.

Results

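The C/EBP, PU.1 and Gfi1 factors are transcription factors that set the fate of myeloid cells, and 8 of their genes were followed here: Cebpa, Cebpb, Cebpd, Cebpe, Cebpg, Spi1 (which encodes PU.1), Gfi1 and Gfi1b. They were picked by gene symbol from the 24310 features of each library, and all 8 symbols were present. RNA had been sequenced from 12 libraries of CMM cells, a transplantable mouse line that models acute myeloid leukaemia of the inv(16) type. In human leukaemia, inv(16) joins CBFB to MYH11. The cells carried GFP and were injected into the veins of C57BL/6 mice, and treatment began once GFP marked about 1% of the blood. Each mouse received 3 intravenous injections on alternate days, of PBS, of CpG-scrODN or of CpG-STAT3dODN, and the spleen was taken 1 day after the last of them. CpG oligonucleotides activate TLR9, an endosomal DNA sensor, STAT3dODN is a decoy for the transcription factor STAT3, and scrODN is its scrambled control.

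There were 4 libraries in each of the 3 labelled groups, but in all 12 files the group word of the column header differed from the label. Libraries labelled PBS were headed DEC, libraries labelled CpG-scrODN were headed PBS, and libraries labelled CpG-STAT3dODN were headed SCR. Groups are named here by their labels, so that no treatment is credited with a direction. All groups shared the same leukaemia line in an immune-competent host. Spleen cells were enriched for c-Kit on a selection kit, and the series design text adds a sort for GFP that the extraction protocol does not list, so host cells can be present. The labels do not say that a library stands for a single mouse, so p-values speak only of variation among these libraries, part of which may be technical.

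C/EBP proteins are basic leucine zipper factors that bind DNA as dimers. C/EBPα starts the granulocyte program, C/EBPε drives its later granule genes, C/EBPβ and C/EBPδ act in inflammatory and emergency myelopoiesis, and C/EBPγ lacks a strong activation domain and dimerises with the others. PU.1 is an ETS factor needed by macrophages, granulocytes and B cells, and its dose helps to set the balance between the macrophage and granulocyte fates. Gfi1 and Gfi1b are zinc finger repressors that recruit the histone demethylase LSD1: Gfi1 acts in stem cells, lymphocytes and granulocytes and restrains monocyte genes, and Gfi1b acts in erythroid cells and megakaryocytes.

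Promoter windows from RefSeq (GRCm38.p6, the assembly of mm10), the 250 bases before an annotated start, were matched for 5 of the 8 genes, in 6 windows because Gfi1 had 2 starts. Cebpd, Cebpe and Spi1 had no entry. Sequence of 3 is printed in lower case, 5′ to 3′ on the strand of the gene, with motif matches in capitals: that of Cebpa because it is the C/EBP gene window with a C/EBP match, and those of Gfi1b and Gfi1, the paralogs at the high and the low end of the levels given later. Cebpa is shown at chr7:35119043-35119292 on the plus strand, Gfi1b at chr2:28621983-28622232 on the minus strand, and Gfi1 as 28 bases at chr5:107725931-107725958 on the minus strand.
Cebpa: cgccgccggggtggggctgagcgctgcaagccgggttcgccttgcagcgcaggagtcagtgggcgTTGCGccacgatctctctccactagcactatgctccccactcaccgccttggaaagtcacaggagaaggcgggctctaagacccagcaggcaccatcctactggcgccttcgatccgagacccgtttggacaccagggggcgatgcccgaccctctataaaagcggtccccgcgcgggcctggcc
Gfi1b: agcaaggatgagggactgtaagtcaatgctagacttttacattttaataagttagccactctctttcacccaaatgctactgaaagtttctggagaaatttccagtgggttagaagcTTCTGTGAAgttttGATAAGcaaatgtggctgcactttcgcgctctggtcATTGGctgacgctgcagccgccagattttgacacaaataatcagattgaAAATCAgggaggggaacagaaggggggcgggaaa
Gfi1: gaaggtaggtTTGCTGAActgctgtgcc
The capitals in Cebpa are the short C/EBP letters TTGCG, 185 to 181 bases before the start, which 14.5% of 32851 promoter windows of the same length hold on either strand. In Gfi1 they are a match to the full C/EBP letters TTGCNNAA, 143 to 136 bases before the RefSeq start used (9.56% of windows). In the GENCODE M21 annotation these 28 bases lie inside the span of Gfi1, 107716657 to 107726036, so they are not upstream of the whole gene. In Gfi1b they are, in order, the STAT letters TTCNNNGAA (7.02% of windows), the GATA letters GATAAG (6.55%), CCAAT on the other strand (33.8%) and the Gfi1 letters AAATCA, 34 to 29 bases before the start (12.4%). The window of Cebpg held CCAAT at 2 places on the other strand, and the PU.1 letters GAGGAAG were in 0 of the 6 windows and in 10.6% of all. The short letters can lie inside a full C/EBP match. These matches describe the letters and do not show binding.

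Values are RPKM as deposited, reads scaled by transcript length and by the mapped reads of the library, so levels of different genes can be set side by side. Estimated depth was 31420000 to 36180000 reads, and 1 RPKM at the lowest depth stands for about 31.4 reads per kilobase. Differences are means of log2(RPKM + 1), on which changes of low genes look smaller than they are, from a limma model of 10886 genes with at least 1 RPKM in at least 4 libraries. Genes with a limma p under 0.05 after Benjamini-Hochberg adjustment over all of them were called. All 8 genes were tested, but Gfi1 reached 1 RPKM only in the 4 libraries labelled PBS and in replicate 3 labelled CpG-STAT3dODN, so it passed this filter through the group where it was high. Replicate 4 labelled PBS and replicate 4 labelled CpG-STAT3dODN stood apart by their low Fos, an immediate-early gene, at 12.9 and 5.91 RPKM against 486 to 1160 in the other 10. Kit, the gene of the selection marker, was present at 10.5 to 37.8 RPKM with the PBS label, 28.3 to 40.5 with the CpG-scrODN label and 25.7 to 51.1 with the CpG-STAT3dODN label.

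The 8 genes spanned a wide range of levels. Spi1 had the highest median over the 12 libraries, 60.6 RPKM, followed by Gfi1b at 55.2. Cebpg came next at 9.29, then Cebpb at 5.67, Cebpe at 4.18, Cebpa at 1.69, Cebpd at 1.63 and Gfi1 at 0.914. Ranked by mean among all features with any signal, Spi1 stood above 95.2% and Gfi1b above 94.6%, while Cebpa, Cebpd and Gfi1 stood above 48.6%, 49.8% and 45.6%. Gfi1b and Cebpg did not overlap over the 12 libraries. Every other pair of neighbours in that order overlapped in range: Spi1 was above Gfi1b in 10 of 12 libraries, Cebpb above Cebpe in 8, and Cebpa above Cebpd in only 2 although its median was higher. The granulocyte paralog Gfi1 was thus the lowest gene and the erythroid and megakaryocyte paralog Gfi1b close to the highest.

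**Figure D1:**
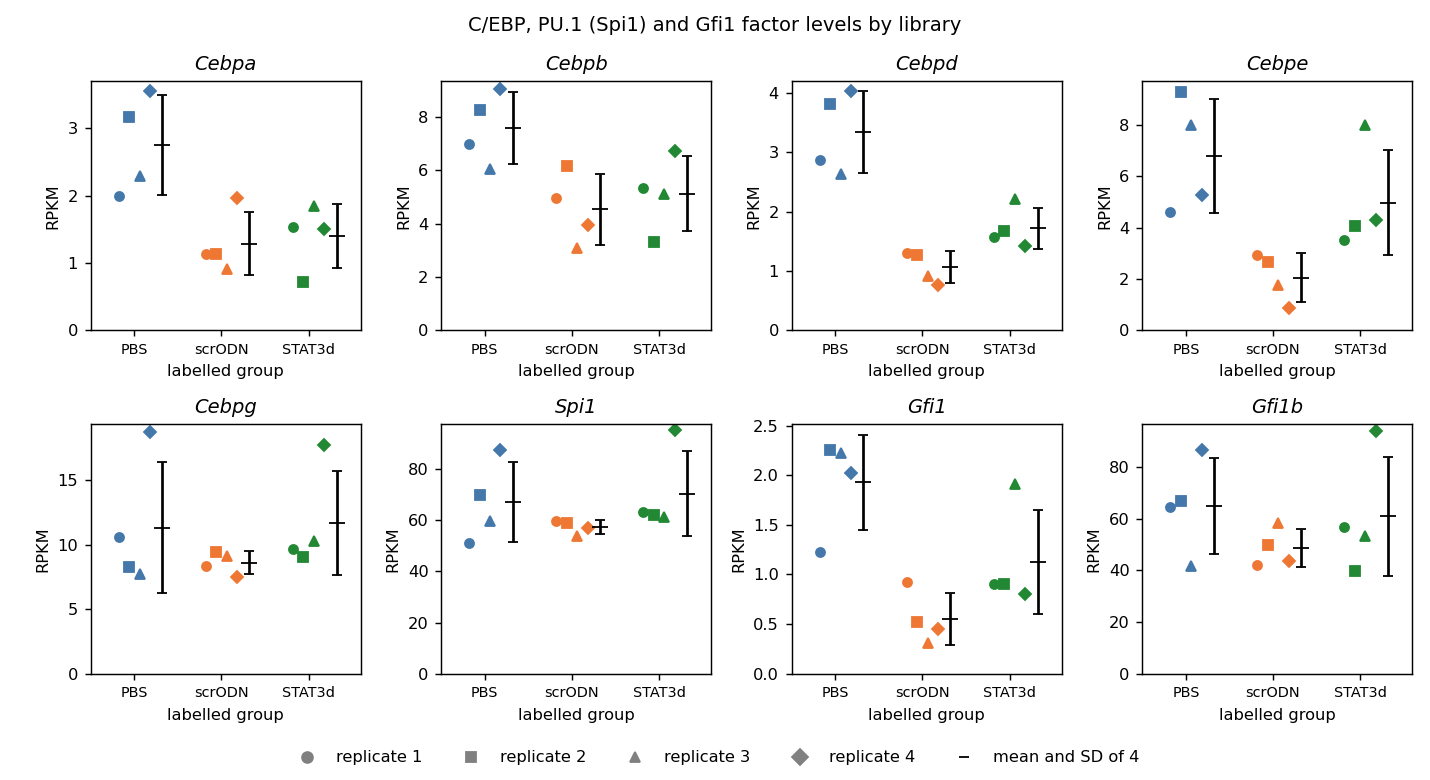
RPKM of each of the 8 genes (vertical axes, linear from 0) in the 12 libraries by labelled group, with the symbol giving the replicate and the bars the mean and SD of 4 libraries. Cebpd is higher in every library labelled PBS (2.64 to 4.04) than in any other library, whereas the groups overlap for Gfi1b.

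Cebpa encodes C/EBPα and lies in 1 exon on chromosome 7, 35119293 to 35121928 (mm10, GENCODE M21, as for all genes here). It was at 1.99, 3.17, 2.29 and 3.56 RPKM in replicates 1 to 4 labelled PBS. In those labelled CpG-scrODN it was at 1.14, 1.13, 0.906 and 1.97, and in those labelled CpG-STAT3dODN at 1.54, 0.719, 1.85 and 1.5. Every library labelled PBS was above every other library, with replicate 1 labelled PBS (1.99) only just above replicate 4 labelled CpG-scrODN (1.97). The difference was -0.72 ± 0.20 for the libraries labelled CpG-scrODN against PBS (SE, limma adjusted p = 0.0716) and -0.65 ± 0.20 for those labelled CpG-STAT3dODN against PBS (limma adjusted p = 0.175). Neither passed. Without replicate 4 labelled CpG-scrODN the first passed at -0.85 (limma adjusted p = 0.0407), and it also passed without replicate 2 labelled CpG-STAT3dODN, which only feeds the shared spread (limma adjusted p = 0.0392).

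Cebpb, which encodes C/EBPβ (chromosome 2, 167688915 to 167690418, 1 exon), was at 6.98, 8.25, 6.02 and 9.03 RPKM in the libraries labelled PBS. It was at 4.96, 6.15, 3.08 and 3.93 in those labelled CpG-scrODN and at 5.32, 3.32, 5.12 and 6.71 in those labelled CpG-STAT3dODN. Both groups overlapped with the libraries labelled PBS at their upper end. The differences from the libraries labelled PBS were -0.65 ± 0.20 and -0.50 ± 0.20 (SE) and did not pass (limma adjusted p = 0.123 and 0.415). The 95% intervals ran from -1.10 to -0.20 and from -0.95 to -0.06 before adjustment for the number of genes. Cebpb shares 312 exonic bases with Tmem189 on the other strand, and the counting is not stated to use strand. Tmem189 itself was at 20.9, 18.7 and 19.5 RPKM on average in the groups labelled PBS, CpG-scrODN and CpG-STAT3dODN.

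Cebpd, which encodes C/EBPδ (chromosome 16, 15887286 to 15891031, 1 exon), was the gene of the 8 that passed against the libraries labelled PBS in both other groups. Its level was 2.87, 3.81, 2.64 and 4.04 RPKM with the PBS label, 1.31, 1.28, 0.914 and 0.767 with the CpG-scrODN label, and 1.58, 1.68, 2.21 and 1.42 with the CpG-STAT3dODN label. The groups formed 3 steps without overlap, highest in the libraries labelled PBS and lowest in those labelled CpG-scrODN. Means were 3.34 ± 0.686, 1.07 ± 0.269 and 1.72 ± 0.344 RPKM (SD, n = 4 each). Cebpd was lower for CpG-scrODN against PBS, with a difference of -1.07 ± 0.14 (SE, 95% interval -1.38 to -0.76, limma adjusted p = 0.00113).

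Against the libraries labelled PBS, Cebpd was also lower in those labelled CpG-STAT3dODN (-0.67 ± 0.14, limma adjusted p = 0.0354). The first call held in all 19 alternatives, with adjusted p up to 0.0066 in limma. The second was kept in 4 of 19 and lost in 9 of the 12 fits that left out a library, all but those without replicate 3 labelled PBS, replicate 4 labelled CpG-scrODN or replicate 3 labelled CpG-STAT3dODN. Its differences in these fits were -0.75 to -0.59 and its limma adjusted p 0.0285 to 0.116. For CpG-STAT3dODN against CpG-scrODN the difference was 0.40 ± 0.14 (SE) and did not pass (limma adjusted p = 0.96). Cebpd overlaps 562 exonic bases of Spidr, a DNA repair gene on the other strand, whose means were 8.55, 8.7 and 7.96 RPKM in the same order of groups.

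Cebpe encodes C/EBPε, the late granulocyte factor (chromosome 14, 54710360 to 54712174, 2 exons). It was at 4.59, 9.28, 7.98 and 5.26 RPKM in the libraries with the PBS label and at 2.95, 2.66, 1.77 and 0.862 in those labelled CpG-scrODN. In those labelled CpG-STAT3dODN it was at 3.5, 4.06, 7.99 and 4.3. The libraries labelled CpG-scrODN were below all 8 others, and the other groups overlapped. Against the libraries labelled PBS the difference was -1.36 ± 0.29 for those labelled CpG-scrODN (SE, 95% interval -1.99 to -0.73, limma adjusted p = 0.0189). With a pseudocount of 0.1, which shrinks low genes less, the differences of Cebpe and Gfi1 were close, at -1.74 and -1.68. For the libraries labelled CpG-STAT3dODN it was -0.39 ± 0.29 (limma adjusted p = 0.886), and between these and those labelled CpG-scrODN it was 0.97 ± 0.29, which did not pass (limma adjusted p = 0.96, unadjusted p = 0.0059). The call was lost without replicate 2 labelled PBS, without replicate 3 labelled CpG-scrODN or without its replicate 4, with limma adjusted p = 0.0574, 0.0659 and 0.0519.

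Markers of neutrophils went with Cebpe at both ends of its range but not throughout. The summed RPKM of 9 neutrophil genes of 10 listed was highest in replicates 2 and 3 labelled PBS (5180 and 4350) and in replicate 3 labelled CpG-STAT3dODN (4180), the same 3 libraries that were highest in Cebpe. It was lowest in replicate 4 labelled CpG-scrODN (529), which was also lowest in Cebpe. Between these the orders differed: replicate 4 labelled PBS had the fourth highest Cebpe (5.26) and a sum of 1720, below replicates 1 and 2 labelled CpG-scrODN (2210 and 1880), whose Cebpe was 2.95 and 2.66. By group the sum ran from 1720 to 5180 with the PBS label, 529 to 2210 with the CpG-scrODN label and 1860 to 4180 with the CpG-STAT3dODN label, and limma called 0 of the 9 genes in each comparison. At an unadjusted limma p under 0.05 there were 5 of the 9 for CpG-scrODN against PBS, all lower, beside 15.6% of all genes. There were 0 for CpG-STAT3dODN against PBS (9.4% of all genes) and 3 for CpG-STAT3dODN against CpG-scrODN, all higher (2.71%). The part of neutrophils in the result was not tested. In these bulk samples, fewer cells of a type and less RNA per cell cannot be told apart.

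Cebpg, which encodes C/EBPγ (chromosome 7, 35046422 to 35056573, on the minus strand near Cebpa), was the most abundant C/EBP gene by median. In the libraries labelled PBS it was at 10.6, 8.24, 7.74 and 18.7 RPKM. It was at 8.38, 9.44, 9.13 and 7.46 in those labelled CpG-scrODN and at 9.67, 9.02, 10.3 and 17.7 in those labelled CpG-STAT3dODN. The groups overlapped, and the high values belong to the libraries of low Fos. The difference from the libraries labelled PBS was -0.29 ± 0.25 for CpG-scrODN and 0.07 ± 0.25 for CpG-STAT3dODN (SE, limma adjusted p = 0.617 and 1). Without both libraries of low Fos these were -0.03 and 0.12.

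The C/EBP genes also differed in their mix. The summed RPKM of the 5 genes was 31.8 ± 6.49 in the libraries labelled PBS, 17.6 ± 2.63 in those labelled CpG-scrODN and 24.9 ± 5.77 in those labelled CpG-STAT3dODN (SD, n = 4 each). The lowest library labelled PBS, at 26.7, was above the highest labelled CpG-scrODN, at 20.7, and the third group ran from 18.8 to 31.6. Cebpd made up 9.91% to 11.6% of the sum with the PBS label, 5.12% to 6.99% with the CpG-scrODN label and 4.49% to 8.94% with the CpG-STAT3dODN label, so its share was highest in the libraries labelled PBS without overlap. The share of Cebpg was 25.2% to 46.1%, 44.7% to 57.8% and 37.5% to 56.0% in the same order, with overlap. Cebpb made up 17.6% to 29.8% of the sum over all 12 libraries. The shares sum to a whole in each library, so a lower share of some genes raises that of others.

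**Figure D2:**
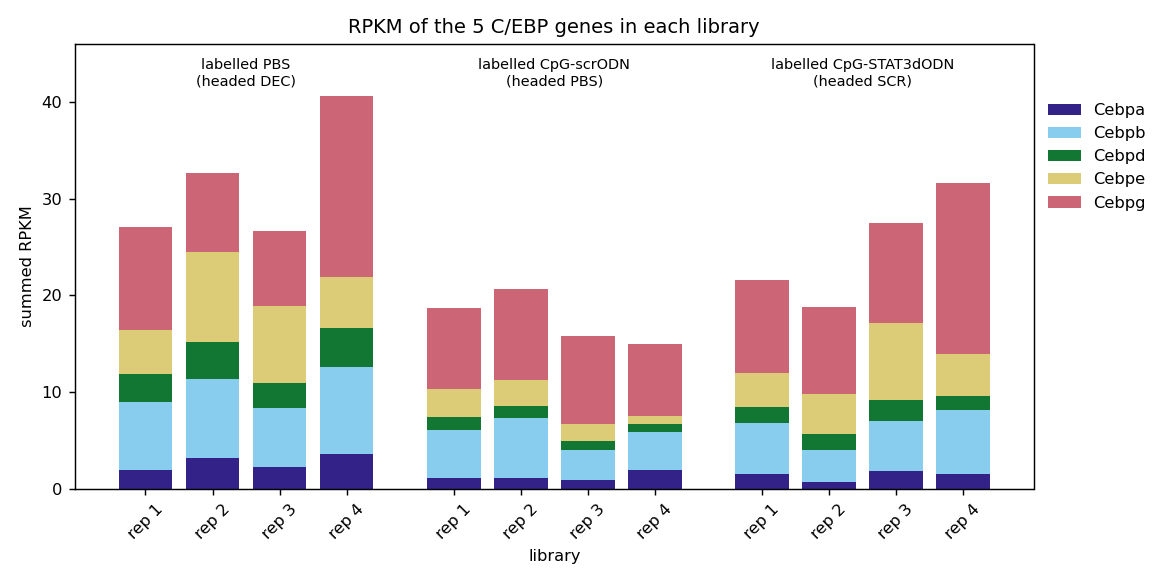
Summed RPKM of the 5 C/EBP genes in each library (vertical axis, linear from 0), stacked by gene and grouped by label with the header word in brackets. The 4 bars labelled CpG-scrODN (15.0 to 20.7) all end below the 4 labelled PBS (26.7 to 40.6), and Cebpg forms the largest block in each of them.

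Spi1, the gene of PU.1 (chromosome 2, 91082390 to 91115756), was at 51, 70.1, 59.9 and 87.4 RPKM in the libraries labelled PBS. It was at 59.7, 59.1, 53.7 and 57.1 in those labelled CpG-scrODN and at 63.1, 62, 61.3 and 95.4 in those labelled CpG-STAT3dODN. The libraries labelled PBS spanned the whole of the group labelled CpG-scrODN. Those labelled CpG-STAT3dODN were all above those labelled CpG-scrODN, and replicate 4 (95.4) stood far above its group. The differences were -0.20 ± 0.17, 0.07 ± 0.17 and 0.27 ± 0.17 (SE) for CpG-scrODN against PBS, CpG-STAT3dODN against PBS and CpG-STAT3dODN against CpG-scrODN. None passed (limma adjusted p = 0.61, 1 and 0.96), and the 95% interval of the first, -0.57 to 0.18, bounds the change at this depth and spread.

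The balance of Spi1 to Cebpa differed between libraries. Spi1 exceeded Cebpa by a factor of 22.1 to 26.2 with the PBS label, 29.0 to 59.3 with the CpG-scrODN label and 33.2 to 86.2 with the CpG-STAT3dODN label. The first range lay below both others. Against the summed C/EBP genes the factor was 1.88 to 2.25, 2.86 to 3.81 and 2.23 to 3.30. These ratios describe the libraries and were not tested.

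Gfi1 (chromosome 5, 107716657 to 107726036) was at 1.23, 2.25, 2.22 and 2.02 RPKM in the libraries labelled PBS. It was at 0.926, 0.516, 0.313 and 0.455 in those labelled CpG-scrODN and at 0.899, 0.903, 1.91 and 0.801 in those labelled CpG-STAT3dODN. The libraries labelled PBS and CpG-scrODN did not overlap, and replicate 3 labelled CpG-STAT3dODN sat among the libraries labelled PBS. Means were 1.93 ± 0.48, 0.552 ± 0.263 and 1.13 ± 0.522 RPKM (SD, n = 4 each). Gfi1 was lower for CpG-scrODN against PBS (-0.91 ± 0.19, SE, limma adjusted p = 0.015). That call was lost without replicate 3 labelled CpG-scrODN (limma adjusted p = 0.0625). The other differences were -0.47 ± 0.19 for CpG-STAT3dODN against PBS and 0.44 ± 0.19 against CpG-scrODN, and did not pass (limma adjusted p = 0.384 and 0.96).

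Depth was thin for Gfi1, with an estimated 11.2 to 80.5 reads per kilobase over the 12 libraries, against 1330 to 3270 for Gfi1b. Lymphocytes also express Gfi1, and their markers were highest in the same labelled group. The summed RPKM of 10 B cell genes was 174 to 677 with the PBS label, 9.59 to 25.3 with the CpG-scrODN label and 22.9 to 110 with the CpG-STAT3dODN label. For 5 T cell genes the sums were 14.2 to 52.4, 1.82 to 3.67 and 2.09 to 4.43. Cebpd followed the same order of groups. Within the libraries labelled PBS, replicate 4 had the highest B cell sum (677) and the highest Cebpd (4.04), and replicate 2 the lowest sum (174) and the second highest Cebpd (3.81). For Gfi1, replicate 2 labelled PBS had the lowest B cell sum of its group (174) and the highest Gfi1 (2.25). Replicate 1 labelled PBS had the second highest sum (270) and the lowest Gfi1 (1.23). With the CpG-STAT3dODN label, replicate 4 had the highest sum (110) and the lowest Gfi1 (0.801). With the CpG-scrODN label, replicate 1 had both the highest sum (25.3) and the highest Gfi1 (0.926). The part of these cells in the results for Gfi1 and Cebpd was not tested.

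Gfi1b (chromosome 2, 28609450 to 28621982) was at 64.4, 67, 41.6 and 86.8 RPKM in the libraries labelled PBS. It was at 42.1, 49.9, 58.3 and 43.7 in those labelled CpG-scrODN and at 56.9, 39.8, 53.5 and 93.8 in those labelled CpG-STAT3dODN. All 3 groups overlapped. The differences from the libraries labelled PBS were -0.38 ± 0.26 and -0.11 ± 0.26 (SE, limma adjusted p = 0.51 and 1). Gfi1b exceeded Gfi1 in every library, by a factor of 18.7 to 52.5 with the PBS label, 45.5 to 186 with the CpG-scrODN label and 28 to 117 with the CpG-STAT3dODN label. The lowest factor was in replicate 3 labelled PBS and the highest in replicate 3 labelled CpG-scrODN.

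Cebpg, Spi1 and Gfi1b shared a pattern that the labels do not follow: each was higher in both libraries of low Fos than in all other 10. Cebpg reached 18.7 and 17.7 RPKM there, against at most 10.6 elsewhere, Spi1 87.4 and 95.4 against at most 70.1, and Gfi1b 86.8 and 93.8 against at most 67.0. Among all genes tested, 23.4% were higher in both libraries than in the other 10 and 18.8% were lower. The other 5 genes did not separate these libraries. The immediate-early list of 10 genes, which holds Fos itself and the heat shock genes Hspa1a and Hspa1b, summed to 210 and 228 RPKM there. In each of the other 10 libraries it summed to 2210 or more. Egr1, of the same list, was at 14.8 and 31.7 RPKM in the libraries of low Fos, against 23.9 to 280 in the other 10. What sets these libraries apart was not tested.

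**Figure D3:**
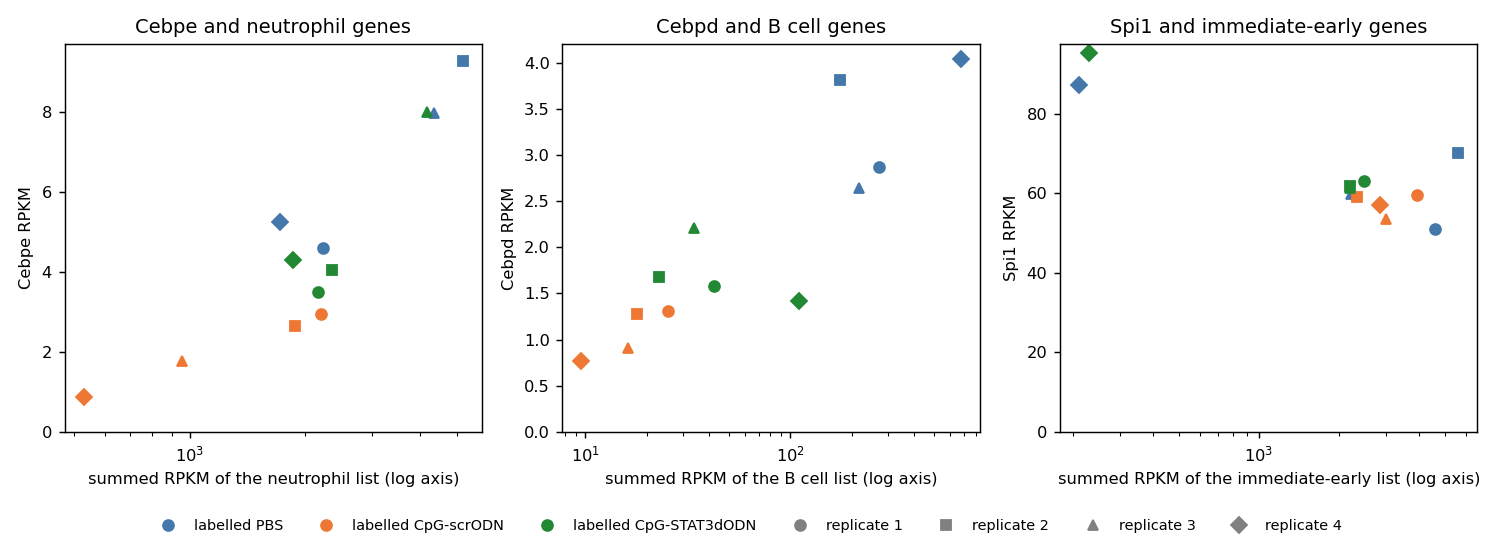
RPKM of a factor gene (vertical axes, linear from 0) against the summed RPKM of a marker list (horizontal log axes) in the 12 libraries, coloured by label with the symbol giving the replicate. The 3 libraries highest in Cebpe are the 3 highest in neutrophil genes. The libraries labelled PBS lie apart in B cell genes (174 to 677). The libraries highest in Spi1 (87.4 and 95.4) are those lowest in the immediate-early list, which holds Fos, Hspa1a and Hspa1b.

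Set side by side, 3 of the 8 genes passed for the libraries labelled CpG-scrODN against PBS, all lower (Cebpd, Cebpe and Gfi1), where 4.15% of all genes tested were called, 0.11% higher and 4.04% lower (12 and 440 genes, or 75 and 318 with quantile normalization). At an unadjusted p under 0.05 there were 5 of 8 against 15.6%, and 4 of 8 did not overlap against 13.9%. All 8 differences were below 0, as were 59.9% over all genes. For CpG-STAT3dODN against PBS, 1 of 8 passed (Cebpd, lower) against 1.86% of all genes, 0.0276% higher and 1.83% lower. There, 4 had an unadjusted p under 0.05 against 9.4%, and 2 did not overlap (Cebpa and Cebpd) against 5.04%. These comparisons share the libraries labelled PBS. For CpG-STAT3dODN against CpG-scrODN limma called 0 of 8 and 0% of all genes, with 3 of 8 at an unadjusted p under 0.05 (Cebpd, Cebpe and Gfi1) against 2.71%. Here all 8 differences were above 0, as were 60% over all genes, and Cebpd, Cebpe and Spi1 did not overlap (4.25% of genes). Gfi1 entered these counts through the libraries in which it was high.

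**Figure D4:**
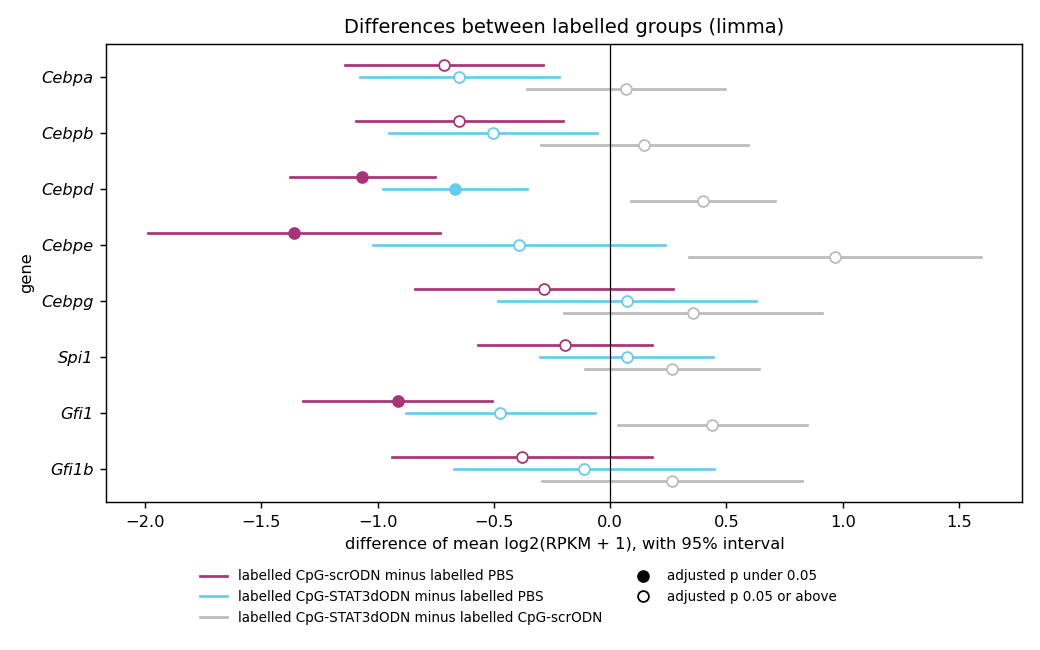
Difference of mean log2(RPKM + 1) between labelled groups (horizontal axis) for each gene, with 95% intervals from limma over 4 libraries a group, and filled points where the adjusted p was under 0.05. Filled points are Cebpe (-1.36), Cebpd (-1.07) and Gfi1 (-0.91) for CpG-scrODN against PBS and Cebpd (-0.67) for CpG-STAT3dODN against PBS.

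Of 9 tested partners and regulators of the C/EBP proteins, 1 was lower and 0 higher for CpG-scrODN against PBS. Over all genes these shares were 4.04% and 0.11%. The median difference was -0.41 against -0.05 over all genes. The lower gene was Trib1, a pseudokinase that directs C/EBPα to degradation. It was at 3.57 ± 1.43 and 1.53 ± 0.52 RPKM (SD, n = 4, difference -0.83, limma adjusted p = 0.0445). That call was kept in only 4 of 19 alternatives. Atf4 and Ddit3, leucine zipper factors of the stress response that can pair with C/EBP proteins, did not pass (limma adjusted p = 0.628 for both). They were at 187 ± 84.3 and 23.6 ± 6.95 RPKM with the PBS label (SD, n = 4). With the CpG-scrODN label they were at 133 ± 2.34 and 17.1 ± 1.49. Atf4 ran from 124 to 311 with the PBS label, which spanned the libraries labelled CpG-scrODN (130 to 136). In the other comparisons limma called 0 of the 9. At an unadjusted limma p under 0.05 there was 1 for CpG-STAT3dODN against PBS (Trib1) and 0 for CpG-STAT3dODN against CpG-scrODN. Over all genes these shares were 9.4% and 2.71%.

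Of 21 tested granulocyte genes that depend on C/EBP factors, 5 were lower and 0 higher for CpG-scrODN against PBS. Over all genes these shares were 4.04% and 0.11%. All 21 differences were below 0, with a median of -1.02, and 59.9% were below 0 over all genes. The 5 included the primary granule genes Ctsg (-2.09), Mpo (-2.08), Prtn3 (-2.05) and Elane (-1.93), with limma adjusted p = 0.00326, 0.00139, 0.00196 and 0.00217, and each was called in all 20 alternatives. Mpo, which encodes myeloperoxidase, was at 91.6 to 119 RPKM with the PBS label and at 17.2 to 30.0 with the CpG-scrODN label. In those labelled CpG-STAT3dODN it ran from 29.6 to 84.0, below the libraries labelled PBS and overlapping the upper end of those labelled CpG-scrODN. The fifth was Il6ra, the interleukin 6 receptor (-0.64, limma adjusted p = 0.0238), which was called in 11 of 19 alternatives.

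Later granule genes of the same list did not pass. Camp, Ngp and Ltf, genes of the secondary granules, differed by -1.70, -1.56 and -1.42 (limma adjusted p = 0.133, 0.155 and 0.246). Csf3r, the receptor for G-CSF and a known C/EBPα target, was at 4.57 ± 0.901 and 2.5 ± 0.77 RPKM (SD, n = 4, difference -0.68, limma adjusted p = 0.121). For CpG-STAT3dODN against PBS 0 of the 21 passed limma, with a median of -0.24. There, 5 had an unadjusted limma p under 0.05, all lower, beside 9.4% of all genes. For CpG-STAT3dODN against CpG-scrODN 0 passed limma, with a median of 0.87 against 0.03 over all genes. Here 8 had an unadjusted limma p under 0.05, all higher, beside 2.71% of all genes. The list shares genes with the neutrophil and the myeloid progenitor markers. The 6 myeloid progenitor markers, which hold Ctsg, Mpo, Prtn3 and Elane, summed to 318 to 433 RPKM with the PBS label. The sums were 119 to 171 with the CpG-scrODN label and 182 to 343 with the CpG-STAT3dODN label. Kit and Cd34, the rest of that list, went the other way. Their means were 21.0 and 15.0 RPKM with the PBS label and 32.2 and 28.9 with the CpG-scrODN label. At an unadjusted limma p under 0.05, 4 of the 6 markers were lower and 2 higher for CpG-scrODN against PBS (15.6% of all genes). The part of either cell type was not tested. For CpG-STAT3dODN against CpG-scrODN, Elane, Mpo and Prtn3 differed by 0.97, 0.91 and 0.91 (limma adjusted p = 0.96 for each).

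Of 19 tested partners, relatives and antagonists of PU.1, 3 were lower and 0 higher for CpG-scrODN against PBS. Over all genes these shares were 4.04% and 0.11%. The median of the 19 was -0.11. Spib, the ETS relative of PU.1 found in B cells and plasmacytoid dendritic cells, was at 18.1 ± 10.6 and 0.945 ± 0.39 RPKM (SD, n = 4). Irf8, the partner of PU.1 in monocyte, dendritic and B cell fates, was at 25.3 ± 11.7 and 3.34 ± 0.861. Their differences were -3.17 and -2.53 (limma adjusted p = 0.000302 and 0.000265). For CpG-STAT3dODN against PBS they were -2.32 and -2.02 (limma adjusted p = 0.00439 and 0.00191). These were the 2 called of 19 there, beside 1.86% of all genes. Klf4, a monocyte factor, was the third of the first comparison (-0.96, limma adjusted p = 0.0341), called in 9 of 19 alternatives. Spib and Irf8 are expressed by B cells, whose 9 tested markers all passed in the first comparison. In the second 8 of them passed, each lower than in the libraries labelled PBS. Of these markers, Ebf1, Pax5 and Fcer2a were at most 0.341, 0.828 and 0.623 RPKM with the CpG-scrODN label. They met the filter through the libraries labelled PBS, where they were high, so their direction was partly set by it. The part of B cells in these values was not tested.

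Runx1 and Cbfb, which form core binding factor, did not pass. In human leukaemia, inv(16) breaks CBFB. Runx1 was at 25.3, 29.2 and 31.5 RPKM on average in the groups labelled PBS, CpG-scrODN and CpG-STAT3dODN, and Cbfb at 40.1, 38.4 and 39.7. The libraries labelled PBS, at 23.4 to 26.9 RPKM of Runx1, were below all others (27.1 to 30.2 and 29.4 to 34.2). Gata1, the erythroid factor that opposes PU.1, was at 112 ± 16.7, 119 ± 12.9 and 117 ± 6.91 RPKM (SD, n = 4 each), above Spi1 in each group mean. Myb, a progenitor factor, stood at 52.5, 53.3 and 54.7.

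Among myeloid genes that need PU.1, 8 of 22 tested were lower and 0 higher for CpG-scrODN against PBS. Over all genes these shares were 4.04% and 0.11%. The median of the 22 was -0.49. Cd53, a leukocyte tetraspanin, differed by -1.92, and Lsp1, a leukocyte actin-binding protein, by -1.59 (limma adjusted p = 0.0117 and 0.00126). Of the NADPH oxidase subunits, Ncf1 and Cybb differed by -1.69 and -1.55 (limma adjusted p = 0.0034 and 0.00177). For CpG-STAT3dODN against PBS, Cybb and Lsp1 passed, at -1.10 and -0.99 (limma adjusted p = 0.0287 and 0.0388), calls kept in 10 and 6 of 20 alternatives. B cells also express Cd53, Lsp1, Cybb and Ncf1. Monocyte markers, 6 genes, summed to 125 to 218 RPKM with the PBS label, 48.7 to 71.3 with the CpG-scrODN label and 62.1 to 132 with the CpG-STAT3dODN label, and the part of either cell type was not tested. Csf1r, the macrophage growth factor receptor and a classical PU.1 target, was at 12.8, 9.19 and 8.01 RPKM and did not pass in any comparison.

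Gfi1 and Gfi1b repress through a complex with LSD1 and histone deacetylases. Of its 13 tested genes limma called 0 in each of the 3 comparisons, with 0 at an unadjusted p under 0.05 as well, and the medians were -0.04, -0.03 and -0.06. Kdm1a, which encodes LSD1, was at 22.9 ± 5.08, 21.9 ± 0.999 and 22.9 ± 4.76 RPKM in the groups labelled PBS, CpG-scrODN and CpG-STAT3dODN (SD, n = 4 each). Rcor1, its CoREST partner, was at 28.4, 28.7 and 27. Of 11 tested genes that Gfi1 or Gfi1b are known to repress, 1 was higher and 1 lower for CpG-scrODN against PBS. Over all genes these shares were 0.11% and 4.04%. The median of the 11 was 0.12. The higher was Cdkn1a, the cell cycle inhibitor p21 (0.41, limma adjusted p = 0.0427, called in 7 of 20 alternatives), and the lower was Irf8. Id2 and Id1, inhibitors of basic helix-loop-helix factors, were at 33.3 and 12.3 RPKM with the PBS label and at 16.7 and 9.34 with the CpG-scrODN label, and did not pass (limma adjusted p = 0.256 and 0.557).

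Of 10 tested partners of Gfi1b in erythroid cells and megakaryocytes limma called 0 in each comparison, with medians of 0.13, 0.12 and -0.04. At an unadjusted limma p under 0.05 there were 1, 1 and 0, beside 15.6%, 9.4% and 2.71% of all genes. Tal1, an erythroid and stem cell factor, was at 57.4, 64.2 and 67.5 RPKM on average in the groups labelled PBS, CpG-scrODN and CpG-STAT3dODN. Klf1, the erythroid Krüppel-like factor, was at 45.2, 44.2 and 42.8. Itga2b, the platelet integrin, ranged from 15.0 to 90.9 RPKM with the PBS label and from 91.0 to 131 with the CpG-scrODN label, and did not pass (limma adjusted p = 0.297). Late platelet genes were low beside these, with Pf4 at group means of 0.548 to 0.934 RPKM and Gp9 at 0.285 to 0.424.

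STAT3 and the receptors that feed it bear on Cebpb and Cebpd, both known STAT3 targets. Stat3 itself was at 43.2 ± 6.82, 45 ± 1.56 and 43.5 ± 6.78 RPKM in the groups labelled PBS, CpG-scrODN and CpG-STAT3dODN (SD, n = 4 each) and did not pass. Socs3, its feedback inhibitor, was at 7.99 ± 2.33, 4.18 ± 0.507 and 4.05 ± 1.07 RPKM, with differences from the libraries labelled PBS of -0.76 and -0.82 that did not pass (limma adjusted p = 0.0624 and 0.0777). Of the 9 genes of the list, Il6ra alone passed, in the comparison of CpG-scrODN with PBS. At an unadjusted limma p under 0.05 there were 6 of 9 in that comparison, 4 lower and 2 higher, against 15.6% of all genes. For CpG-STAT3dODN there were 2 of 9 against PBS and 2 of 9 against CpG-scrODN, beside 9.4% and 2.71% of all genes. Junb and Pim1, further targets, were at 162 and 89.9 RPKM with the PBS label and at 271 and 139 with the CpG-scrODN label, and did not pass (limma adjusted p = 0.17 and 0.291).

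For each factor, the gene most like it over the 12 libraries was found by the root mean square difference of log2(RPKM + 1), each gene centred on its mean. For Gfi1b, which itself varied by 0.38 on this scale, the closest was Shmt2, the mitochondrial serine hydroxymethyltransferase, at 0.09. Gys1, the muscle glycogen synthase, was closest to Cebpg, and Ticam1, the TLR adaptor TRIF, to Spi1, both at 0.09. Cebpg and Spi1 themselves varied by 0.38 and 0.25. Gfi1b, Cebpg and Spi1 are the 3 factors that were highest in both libraries of low Fos, as were 23.4% of all genes tested. Gfi1 was matched most closely by Card9, an adaptor of myeloid cells, at 0.09 against its own variation of 0.44. Cebpe was closest to Mgst2, a microsomal glutathione transferase, at 0.11 against 0.69. Cebpd was closest to Ikbke, a kinase of interferon induction, at 0.14 against 0.47. Cebpa and Cebpb had the least close neighbours, Ggh, a folate hydrolase, at 0.15 and Gapt at 0.19. These likenesses share libraries and labelled groups and carry no test.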

How the data were processed

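The authors deposited RPKM values for each library, unit per the file headers and labels. The submitters' processing notes name mm10, TopHat 1.3.1 and Partek 6.12.0713 without their roles. Neither annotation nor filters were named in the sources used here. Groups followed the sample labels. Genes reaching 1 RPKM in 4 or more of the 12 libraries were analysed as log2(RPKM + 1) in limma 3.58.1 (R 4.3.3), 1 model of 3 groups with an intensity trend, two-sided, Benjamini-Hochberg adjustment over 10886 genes. It was tested on simulated data. Depth was estimated from the steps of low values, of which 65.1% to 70.8% were whole within 0.05 of a read, too few to recover counts. Replicate numbers were not taken as pairs. Named are the 8 genes, the closest of the 3 most alike genes found for each, up to 4 called genes per list with the largest differences, and textbook partners. Other list genes named were chosen after their values were seen. Values of some list genes are not reported here. The genes and lists were chosen with earlier results of these data known. Alternatives were another pseudocount, filters, scalings, the replicate block, 2 groups only and libraries left out.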

Additional observations from a re-analysis of the deposited data

Results flagged for a closer look

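Among 24 sets of 4 libraries (8 genes in 3 labelled groups), 3 held a library far from its group, judged by the gap to its nearest neighbour as a share of the group's range against Dixon's 95% critical value. Chance alone marks about 1 set in 20. Cebpg in replicate 4 labelled CpG-STAT3dODN was at 17.7 RPKM with the others at 9.02 to 10.3 (share 0.853). Spi1 in the same library was at 95.4 RPKM with the others at 61.3 to 63.1 (share 0.946). This is one of the libraries of low Fos. Gfi1 in replicate 3 labelled CpG-STAT3dODN was at 1.91 RPKM with the others at 0.801 to 0.903 (share 0.908). That library had the highest neutrophil sum (4180 RPKM) and the highest myeloid progenitor sum (343 RPKM) of its group, and the part of those cells was not tested.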

How the results depend on the processing

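Of 471 member values under alternatives, 441 kept direction and side of the threshold, 19 lost and 2 gained a call, and 9 changed sign, none of these 9 called. For CpG-scrODN against PBS, an RPKM floor of 5 left 5 of the 8 genes tested with 1 called and 163 of all genes, and leaving out both libraries of low Fos gave 686 of all genes. Leaving out 1 library gave 1 to 4 called members, lowest without replicate 3 labelled CpG-scrODN, and 279 to 560 of all genes. For CpG-STAT3dODN against PBS the called member, Cebpd, became 0 called with a pseudocount of 0.1, no filter, the floor, quantile normalization, the replicate block, 2 groups only or without both libraries of low Fos, and 0 to 1 with 1 library left out. All genes called there were 76 with the floor, 78 with 2 groups only, 337 without both libraries of low Fos, and 121 to 218 with 1 library left out. For CpG-STAT3dODN against CpG-scrODN all genes called became 1 with 2 groups only. The causes were not tested, except that the floor tests fewer genes.

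With 1 library left out, differences near 0 changed sign: for CpG-STAT3dODN against PBS Spi1 ran from -0.081 to 0.206, Cebpg from -0.131 to 0.324 and Gfi1b from -0.339 to 0.066, and for CpG-STAT3dODN against CpG-scrODN Cebpa ran from -0.023 to 0.22. No scaling moved the median of all genes by over 0.1.

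Same-numbered libraries correlated between -0.341 and 0.817 in their deviations, and 3 of 12 matched best with their own number, so the numbers were not treated as pairing. With the replicate block, limma called 3 members and 523 genes for CpG-scrODN against PBS, 0 members and 213 genes for CpG-STAT3dODN against PBS (Cebpd adjusted p = 0.0798), and 0 for the third comparison. Depth limits Gfi1, Cebpa and Cebpd, with at most 80.5, 113 and 136 estimated reads per kilobase.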
